A study of Saccharomyces cerevisiae with 36 samples.

Results

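The genes described here are MSN2 and MSN4, which encode a pair of related stress activators of budding yeast, and their classic target genes CTT1, HSP12, HSP26, DDR2 and DCS2. They were listed by name for their known roles, with earlier results of these data known, and make up 7 of the 5338 genes measured. Each has 1 probe set, and each was detected on all 36 arrays of the study. The arrays came from cultures of the msn5 deletion, the mtr10 deletion and the wild-type parent BY4742, a MATalpha laboratory strain. MSN5 and MTR10 encode carriers that move cargo, tRNA among it, through the nuclear pore, and the study was set up around tRNA traffic. Every culture was grown in synthetic medium to early log phase, split, and kept for 30 min in medium without amino acids (starved) or with them (fed), and all received cycloheximide before harvest, which holds ribosomes on messages. RNA was taken from the polysome fractions of a sucrose gradient, from the non-polysome fractions, and as total RNA, which gives 18 groups of 2 arrays each. The labels call the arrays of a group biological replicates but do not say what they share. The p-values rest on the spread of a gene between the 2 arrays of a group, pooled over all 18 groups. They do not say how many clones of a deletion were used.

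Msn2 and Msn4 are zinc finger activators that bind a short promoter element, the STRE, in many stress genes. In well fed cells protein kinase A and TOR signalling keep them in the cytoplasm, and under stress or starvation they enter the nucleus and switch on protective and storage genes. Msn5 is the carrier that exports Msn2 from the nucleus. The arrays measure messages only, so neither the place nor the activity of the 2 proteins was measured.

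Values are RMA signals on the log2 scale, where a difference of 1 is 2-fold, and RMA gives every array the same overall distribution. Each comparison is a limma contrast over all 5338 genes with the Benjamini-Hochberg adjustment, and calls were made where the adjusted p was below 0.05. Errors of a change are standard errors of that fit. Values in MAS5 signals, a second summary of the same arrays, are those with the 2 mismatched MAS5 columns left out. That leaves 1 array in each wild-type total group. In MAS5 comparisons with those groups, fewer arrays and another summary cannot be told apart.

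The deleted genes checked the labels. MSN5 read 3.64 to 4.75 on 10 of the 12 msn5 arrays and 6.85 to 7.23 on the 2 fed non-polysome arrays, against 10.94 to 12.57 in the other strains. MTR10 read 3.64 to 4.67 on 10 of the 12 mtr10 arrays and 5.17 to 5.48 on the 2 fed non-polysome arrays, against 9.99 to 11.09 in the other strains. A fit without the mutants' fed non-polysome arrays was made for the comparisons that do not use them. There all 71 called changes of the genes described stayed called, and 3 uncalled ones were called. In comparisons that use these arrays the part of the raised values was not tested. Genes that only MATa cells are known to express, such as the a-factor gene MFA2 and the alpha-factor receptor gene STE2, also moved with the groups. The summed linear signal of 7 such genes in total RNA was 13810 to 16630 in starved and 1845 to 1851 in fed msn5 cells, 14400 to 21480 in starved and 9869 to 10520 in fed mtr10 cells, and 33900 to 36460 in starved and 1856 to 2061 in fed wild-type cells. On starvation 7 of 7 rose in msn5, 4 of 7 in mtr10 and 7 of 7 in wild-type, where 28.8%, 24.8% and 31.4% of all genes rose. The 4 MATalpha-specific genes summed to 10220 to 10560 in starved and 18990 to 19900 in fed msn5 cells, 24570 to 25270 in starved and 36720 to 38250 in fed mtr10 cells, and 28420 to 28540 in starved and 35100 to 35450 in fed wild-type cells. In RNA of a whole culture, more cells of a type and more RNA per cell cannot be told apart. The part of these genes' cells in the results below was not tested.

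Across the 18 groups the target genes fell into different patterns. CTT1, which encodes cytosolic catalase, separated the conditions on every array, with 10.53 to 11.63 (median 11.07) on the 18 starved arrays and 8.71 to 10.08 (median 9.58) on the 18 fed ones. DDR2, a small stress protein first found as DNA damage responsive, had 11.62 to 13.12 when starved and 10.35 to 11.67 when fed, so that the ranges barely met. DCS2, a regulator related to the scavenger decapping enzyme Dcs1, spread most by strain, and its ranges overlapped widely, 9.60 to 12.91 when starved and 9.20 to 11.80 when fed. HSP26, a small heat shock protein that holds unfolded proteins, differed more by pool than by condition, with 10.22 to 11.51 on starved and 9.10 to 11.61 on fed arrays. HSP12, a small protein that protects membranes, had 13.05 to 14.34 on starved and 12.27 to 13.55 on fed arrays. The highest value of any probe set was 14.61. MSN2 had the narrowest range of the 7, with 10.61 to 12.21 starved and 10.58 to 11.57 fed, and MSN4 had 8.75 to 11.27 starved and 8.61 to 10.19 fed.

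**Figure D1:**
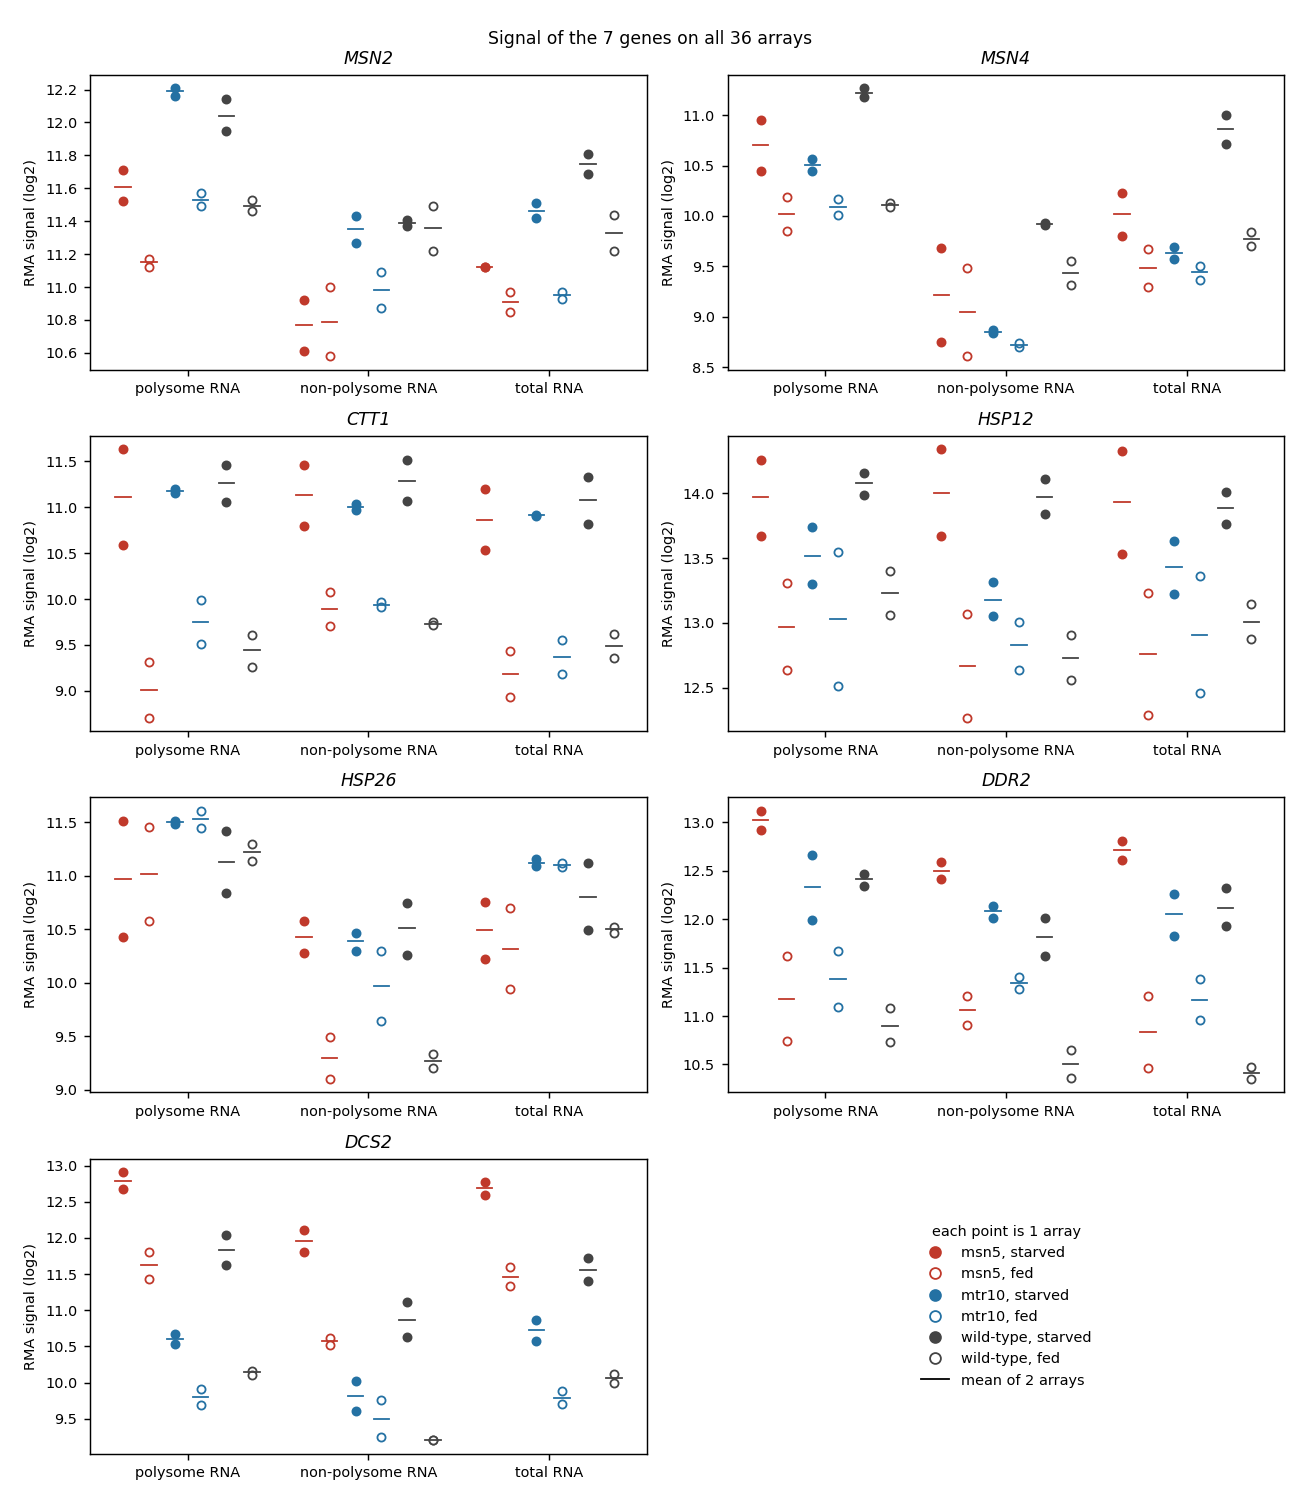
RMA signal (log2) of the 7 genes on all 36 arrays, by pool of RNA, strain and condition; each point is 1 array and each bar the mean of 2. CTT1 separates starved from fed arrays in every strain and pool, DCS2 is highest in the msn5 deletion, and HSP26 is lowest in fed non-polysome RNA.

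Starvation raised CTT1, DDR2 and DCS2 in total RNA of all 3 strains, and did not raise HSP26 past the threshold in any. Of the 5 target genes, 4 were called higher in msn5, 3 in mtr10 and 3 in wild-type. Over all genes 28.8% were called higher in msn5, 24.8% in mtr10 and 31.4% in wild-type. The median change of the 5 was 1.22, 0.88 and 1.50 in the same order of strains, beside -0.03, 0.01 and -0.03 over all genes.

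CTT1 had 10.53 and 11.20 on starved against 8.93 and 9.43 on fed msn5 arrays, 10.91 and 10.90 against 9.18 and 9.55 in mtr10, and 11.33 and 10.82 against 9.62 and 9.36 in wild-type. The starved arrays lay above the fed ones in each strain. The rise was 1.68 ± 0.30 in msn5 (adjusted p 6.54e-05), 1.54 ± 0.30 in mtr10 (0.000234) and 1.59 ± 0.30 in wild-type (9.61e-05), which is 3.21-fold, 2.91-fold and 3.0-fold. DDR2 had 12.61 and 12.81 on starved against 10.46 and 11.21 on fed msn5 arrays, 11.83 and 12.26 against 10.96 and 11.38 in mtr10, and 12.32 and 11.93 against 10.35 and 10.47 in wild-type. No starved array of a strain fell among its fed ones. DDR2 rose by 1.88 ± 0.28 in msn5 (6.44e-06), by 0.88 ± 0.28 in mtr10 (0.0119) and by 1.72 ± 0.28 in wild-type (1.40e-05). The call in mtr10 was lost without fed replicate 1 (0.67, adjusted p 0.128) and without starved replicate 2 (0.67, 0.129).

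DCS2 had 12.59 and 12.78 on starved against 11.33 and 11.60 on fed msn5 arrays, 10.58 and 10.86 against 9.70 and 9.88 in mtr10, and 11.72 and 11.41 against 10.12 and 10.00 in wild-type. The fed msn5 arrays overlapped the starved wild-type ones, and the starved mtr10 arrays lay below both. Within each strain DCS2 rose, by 1.22 ± 0.19 in msn5 (adjusted p 1.63e-05), 0.93 ± 0.19 in mtr10 (0.000438) and 1.50 ± 0.19 in wild-type (8.10e-07). These DCS2 calls held with any 1 array of the comparison left out.

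HSP12 had 13.53 and 14.33 on starved against 12.29 and 13.23 on fed msn5 arrays, 13.22 and 13.63 against 12.46 and 13.36 in mtr10, and 14.01 and 13.76 against 12.88 and 13.15 in wild-type. Replicate arrays of the mutants differed by up to 0.94 in these pools, and in mtr10 the conditions overlapped. HSP12 rose in msn5 (1.17 ± 0.38, adjusted p 0.0118), while the change of 0.51 ± 0.38 in mtr10 (0.282) and 0.87 ± 0.38 in wild-type (0.0518) did not pass. The call in msn5 was lost without fed replicate 1 (0.70, 0.198), without starved replicate 2 (0.77, 0.166) and in MAS5 signals (0.59, 0.155), and in wild-type the value passed in a fit of the compared groups alone (0.00501), with the replicate number as a block (0.0162), with a trend and robust prior (0.0476) and without the mutants' fed non-polysome arrays (0.0496). HSP26 had 10.22 and 10.76 on starved against 9.94 and 10.70 on fed msn5 arrays, 11.09 and 11.16 against 11.08 and 11.12 in mtr10, and 11.12 and 10.49 against 10.52 and 10.47 in wild-type. The conditions overlapped in all 3 strains, and the changes were 0.17, 0.03 and 0.31 (standard error 0.33, adjusted p 0.664, 0.954 and 0.420).

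Of the activator genes, MSN2 and MSN4 both passed in wild-type, MSN2 in mtr10 and neither in msn5. MSN2 had 11.12 and 11.12 on starved against 10.85 and 10.97 on fed msn5 arrays, 11.51 and 11.42 against 10.97 and 10.93 in mtr10, and 11.81 and 11.69 against 11.44 and 11.22 in wild-type. Starved arrays were the higher in each strain. The rise of 0.52 ± 0.13 in mtr10 (adjusted p 0.00198) and of 0.42 ± 0.13 in wild-type (0.00688) passed, and the change of 0.21 ± 0.13 in msn5 (0.163) did not, though it did in MAS5 signals (0.27, 0.0467). Uncentred MAS5 signals gave 0.83 in mtr10. In wild-type the call was lost without fed replicate 2 (0.31, 0.0986), without starved replicate 1 (0.36, 0.0630) and in MAS5 signals (0.28, 0.152). MSN4 had 9.80 and 10.23 on starved against 9.30 and 9.67 on fed msn5 arrays, 9.69 and 9.57 against 9.37 and 9.50 in mtr10, and 11 and 10.71 against 9.84 and 9.70 in wild-type. The wild-type arrays were set furthest apart by condition. MSN4 rose by 1.08 ± 0.25 in wild-type (0.000640), and changed by 0.53 ± 0.25 in msn5 (0.0682) and 0.19 ± 0.25 in mtr10 (0.548) without passing. The msn5 value passed without starved replicate 1 (0.75, 0.0399), without the mutants' fed non-polysome arrays (0.0422) and in MAS5 signals (0.76, 0.0199).

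**Figure D2:**
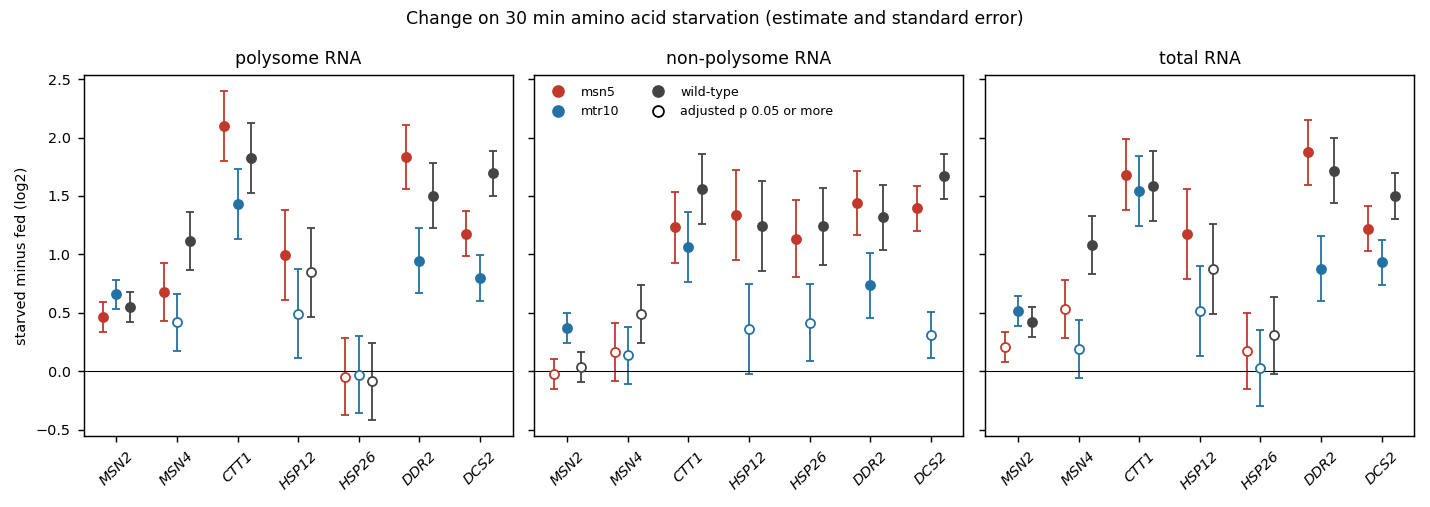
Change of each gene on starvation (starved minus fed, log2, with standard error) in polysome, non-polysome and total RNA of msn5, mtr10 and wild-type cells; open points have an adjusted p of 0.05 or more. CTT1 is filled in all 9 settings, and HSP26 is filled only in non-polysome RNA of msn5 and wild-type cells.

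Whether the response differed between strains was tested directly in total and polysome RNA. For non-polysome RNA, where changes are given below by strain, a difference between strains was not tested. In total RNA no member's response in msn5 differed from that in wild-type past the threshold, at which 0.693% of all genes were called. The difference for CTT1 was 0.10 with a 95% interval of -0.79 to 0.98, for DDR2 0.16 (-0.65 to 0.97), for DCS2 -0.28 (-0.85 to 0.29) and for MSN4 -0.55 (-1.28 to 0.18). For mtr10 against wild-type 14.3% of all genes were called and no member was, with -0.89 for MSN4 (-1.62 to -0.16, adjusted p 0.0951), -0.84 for DDR2 (-1.65 to -0.02, 0.159) and -0.57 for DCS2 (-1.14 to 0.00, 0.175). The MSN4 value passed in a fit of the 4 compared groups alone (0.0106), as did its polysome response (-0.70, 0.0121, against 0.183). In polysome RNA no member's response in msn5 was called, where 1.01% of all genes were, and the difference for DCS2 was -0.52 (-1.09 to 0.05). The polysome response of DCS2 was smaller in mtr10 than in wild-type by 0.90 (-1.47 to -0.33, adjusted p 0.0288), where 16.4% of all genes were called. That call was lost in MAS5 signals (-0.55, 0.303) and without fed polysome replicate 2 of mtr10 (-0.78, 0.112), starved replicate 1 of mtr10 (-0.83, 0.0972), fed replicate 1 (-0.92, 0.0661), fed replicate 2 (-0.87, 0.0780) or starved replicate 1 (-0.68, 0.149) of wild-type.

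In polysome RNA the same 3 target genes rose on starvation in every strain, by 1.43 to 2.10 for CTT1, 0.95 to 1.83 for DDR2 and 0.80 to 1.69 for DCS2. DCS2 in msn5 rose by 1.18, and by 0.75 in MAS5 signals. The call for DDR2 in mtr10 was lost without fed replicate 1 (0.66, adjusted p 0.104), without starved replicate 2 (0.61, 0.121) and in MAS5 signals (0.53, 0.117). HSP12 rose in msn5 (0.99, 0.0272) and did not pass in mtr10 (0.49, 0.277) or wild-type (0.85, 0.0552), where the compared groups alone gave 0.00412 and the replicate block 0.0176. Without fed or starved replicate 2 the msn5 value was 0.66 (0.234) or 0.69 (0.202), and in MAS5 signals 0.21 (0.600). HSP26 stayed near 0, with -0.05, -0.03 and -0.09. MSN2 rose in all 3 strains, by 0.46 in msn5, 0.66 in mtr10 and 0.55 in wild-type, the last not called in MAS5 signals (0.23, 0.0737). MSN4 rose in msn5 (0.68, 0.0195) and wild-type (1.12, 0.000407) and not past the threshold in mtr10 (0.42, 0.153), where the compared groups alone gave 0.0126. The msn5 call was lost without fed replicate 2 (0.51, 0.159), without starved replicate 2 (0.43, 0.210) and in the fit of the compared groups (0.0554). Over all genes 34.2% were called higher in msn5, 32.7% in mtr10 and 36.1% in wild-type.

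In non-polysome RNA all 5 target genes were called higher in msn5 and wild-type and 2 of 5 in mtr10, where 26.6%, 31.1% and 25.8% of all genes were. HSP26 had 10.28 and 10.58 on starved against 9.10 and 9.49 on fed msn5 arrays, 10.47 and 10.30 against 10.30 and 9.64 in mtr10, and 10.75 and 10.26 against 9.33 and 9.20 in wild-type. The conditions were apart in msn5 and wild-type and met in mtr10. HSP26 rose by 1.13 ± 0.33 in msn5 (adjusted p 0.00540) and 1.24 ± 0.33 in wild-type (0.00215), with 0.42 ± 0.33 in mtr10 (0.303). Without fed replicate 1 or starved replicate 2 the msn5 value was 0.94 (0.0574) or 0.98 (0.0502). DCS2 rose by 1.39 in msn5 and 1.67 in wild-type. HSP12 rose by 1.33 in msn5 and 1.24 in wild-type. Its calls were lost without fed replicate 1 (0.94, 0.0948) or starved replicate 2 (1.00, 0.0795) of msn5, and without fed replicate 1 (1.07, 0.0609) or starved replicate 1 (1.10, 0.0540) of wild-type. In mtr10 CTT1 rose by 1.06 and DDR2 by 0.73, and the DDR2 call was lost without any 1 of the 4 arrays (0.67 to 0.80, 0.0692 to 0.137), while DCS2 changed by 0.31 ± 0.19 (0.195).

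The activator genes had little change in non-polysome RNA. MSN2 changed by -0.02 in msn5 and 0.04 in wild-type, and rose by 0.37 in mtr10 (adjusted p 0.0212), a call lost without fed replicate 1 (0.26, 0.183), starved replicate 2 (0.29, 0.143) and in the fit of the compared groups (0.0796). MSN4 changed by 0.17, 0.13 and 0.49, in msn5, mtr10 and wild-type, with no call. It was called in msn5 without starved replicate 1 (0.63, 0.0409) and in wild-type in the fit of the compared groups (0.0142). The mutants' fed non-polysome arrays are those on which the deleted gene read high.

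DCS2 was called in 9 of the 12 comparisons of a mutant with wild-type, against 2 for DDR2 among the other target genes. It was higher in msn5 than in wild-type cells in both conditions and all 3 pools, and lower in mtr10 than in wild-type cells in all 3 pools when starved. In fed total RNA the msn5 arrays had 11.33 and 11.60 against 10.12 and 10.00 in wild-type, a difference of 1.40 ± 0.19 (2.64-fold, adjusted p 3.46e-05). In starved total RNA they had 12.59 and 12.78 against 11.72 and 11.41, a difference of 1.12 ± 0.19 (0.000289). The msn5 arrays stood above the wild-type ones in each of the 6 settings, by 0.96 and 1.48 in starved and fed polysome RNA and by 1.10 and 1.37 in starved and fed non-polysome RNA. In fed total RNA 6.58% of all genes were called higher in msn5, and 9.25% in starved total RNA, with 6.41% and 5.47% in starved and fed polysome and 10.7% and 9.48% in starved and fed non-polysome RNA. Leaving out any 1 array of the comparison kept the call in all 6, and a fit of the compared groups alone did not give it in starved polysome (0.136) and starved non-polysome RNA (0.0614). Uncentred MAS5 signals did not give it in starved total (0.97, 0.0624) and starved polysome RNA (0.74, 0.0709). In fed total RNA 0 of the 7 MATa-specific genes were called between msn5 and wild-type (median difference -0.15). There 3 of 4 MATalpha-specific genes were lower in msn5, as were 5.36% of all genes. The part of mating-type genes or cells in the DCS2 difference was not tested.

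In starved total RNA the mtr10 arrays had 10.58 and 10.86 for DCS2, below 11.72 and 11.41 in wild-type. The difference was -0.84 ± 0.19 (adjusted p 0.000971) in total, -1.23 ± 0.19 (1.86e-05) in polysome and -1.06 ± 0.19 (0.000109) in non-polysome RNA. When fed, differences were -0.28 in total, -0.34 in polysome and 0.30 in non-polysome RNA, with no call, though the compared groups alone gave one in polysome RNA (0.0402). In starved total RNA 28.5% of all genes were called lower in mtr10, so a lower signal there was common, as were 27.2% in polysome and 26.5% in non-polysome RNA. The mutants were also compared directly with each other, in the same fit. DCS2 was higher in msn5 than in mtr10 by 1.97 ± 0.19 in starved (4.13e-08) and by 1.68 ± 0.19 in fed total RNA (5.67e-07), where 24.6% and 20.2% of all genes were called higher. For MSN2 the difference between starved msn5 and starved mtr10 cells was -0.34 (adjusted p 0.0311, where 23.2% of all genes were called lower), a call lost without any 1 of the 4 arrays (-0.383 to -0.302, 0.0653 to 0.145). Between msn5 and mtr10 total RNA the compared groups alone also called HSP26 lower in msn5 when starved (-0.63, 0.0364) and when fed (-0.78, 0.0387), and DDR2 higher when starved (0.66, 0.0212, and 0.0474 with the replicate block). In starved cells 5 of 7 MATa-specific genes were lower in mtr10 and 6 of 7 in msn5 than in wild-type total RNA. Over all genes 28.5% and 10.9% were. Between the starved mutants 2 of the 7 were called in each direction, where 24.6% of all genes were called higher and 23.2% lower in msn5.

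MSN2, the message of the factor that Msn5 exports, was lower in msn5 than in wild-type cells in 5 of the 6 settings. In starved total RNA it had 11.12 and 11.12 in msn5 against 11.81 and 11.69 in wild-type cells, and in fed total RNA 10.85 and 10.97 against 11.44 and 11.22. The arrays of the strains did not overlap in either condition. The difference was -0.63 ± 0.13 when starved (1.54-fold lower, adjusted p 0.00134) and -0.42 ± 0.13 when fed (0.0354), where 10.9% and 5.36% of all genes were called lower. The fed call was lost without fed total replicate 1 of wild-type (-0.31, 0.350), replicate 1 of msn5 (-0.36, 0.250) or replicate 2 of msn5 (-0.48, 0.0805). In MAS5 signals neither passed, with -0.34 (0.144) starved and -0.32 (0.187) fed. In non-polysome RNA the difference was -0.63 starved (0.00117) and -0.57 fed (0.00334), and in polysome RNA -0.43 starved (0.0232), with -0.35 fed not called (0.0996). In starved polysome RNA 10.4% of all genes were called lower, and 13.8% and 6.93% in starved and fed non-polysome RNA. That fed polysome value passed in MAS5 signals (-0.41, 0.0220) and in the compared groups alone (0.0314). The fed non-polysome call was lost without replicate 1 of wild-type (-0.435, 0.0811) or of msn5 (-0.36, 0.131), and the starved polysome call without replicate 1 of wild-type (-0.33, 0.184) or of msn5 (-0.335, 0.128) and in MAS5 signals (-0.30, 0.0977). A fit of the compared groups alone gave neither (0.113 and 0.264), nor the starved non-polysome call (0.124).

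In mtr10 MSN2 was called lower in fed total (-0.38, adjusted p 0.0210) and fed non-polysome RNA (-0.38, 0.0174), where 20.7% and 26.7% of all genes were. The first was lost without replicate 1 of wild-type (-0.27, 0.212) or either replicate of mtr10 (-0.41, 0.0642 and -0.36, 0.0981) and in MAS5 signals (-0.30, 0.112). The second was lost without replicate 1 of wild-type (-0.25, 0.209) or of mtr10 (-0.27, 0.172), in MAS5 signals (-0.21, 0.137) and in the compared groups alone (0.0680). In starved total RNA the difference of -0.28 was not called (0.0649), and it was in the compared groups alone (0.0490) and without the mutants' fed non-polysome arrays (0.0345).

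MSN4 was lower than in wild-type in both mutants when starved. In total RNA it had 9.80 and 10.23 in msn5 and 9.69 and 9.57 in mtr10, against 11 and 10.71 in wild-type. All 4 mutant arrays lay below both wild-type ones. Over all genes 28.5% were called lower in starved mtr10 total, 26.5% in non-polysome and 27.2% in polysome RNA. In starved msn5 10.9% were called lower in total and 13.8% in non-polysome RNA. In mtr10 the difference was -1.23 ± 0.25 in total (2.34-fold lower, adjusted p 0.000272), -1.07 ± 0.25 in non-polysome (0.00104) and -0.71 ± 0.25 in polysome RNA (0.0199), the last lost without any 1 of the 4 arrays (-0.766 to -0.655, 0.0527 to 0.0917) and in MAS5 signals (-0.61, 0.0757). In msn5 it was -0.84 ± 0.25 in total (0.0190), -0.70 ± 0.25 in non-polysome (0.0415) and -0.52 ± 0.25 in polysome RNA (0.164). The total call was lost without replicate 1 of wild-type (-0.695, 0.153) or of msn5 (-0.62, 0.160), in MAS5 signals (-0.60, 0.300) and in the compared groups alone (0.0732). The non-polysome call was lost without replicate 1 (-0.72, 0.115) or 2 (-0.69, 0.141) of wild-type and without replicate 1 of msn5 (-0.24, 0.549), and in the compared groups alone (0.258), and the difference was -1.17 without replicate 2 of msn5. When fed, MSN4 was called in mtr10 non-polysome RNA (-0.71, 0.0210), where 26.7% of all genes were called lower, and in none of the other 5 settings. That call was lost without replicate 1 of wild-type (-0.60, 0.128) and without replicate 1 (-0.69, 0.0824) or 2 (-0.735, 0.0639) of mtr10. The compared groups alone gave a call in mtr10 total RNA (-0.34, 0.0220), and msn5 non-polysome RNA gave one without replicate 2 of msn5 (-0.82, 0.0380).

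Of the other 4 target genes DDR2 was called between a mutant and wild-type, in fed mtr10 cells. DDR2 had 10.96 and 11.38 on fed total arrays of mtr10 against 10.35 and 10.47 in wild-type cells, with no overlap. It was higher by 0.76 ± 0.28 there (adjusted p 0.0331) and by 0.84 ± 0.28 in fed non-polysome RNA (0.0156), where 18.8% and 22.1% of all genes were called higher. The total call was lost without replicate 1 (0.70, 0.144) or 2 (0.82, 0.0817) of wild-type, without replicate 2 of mtr10 (0.55, 0.236) and in MAS5 signals (0.94, 0.0519). The non-polysome call was lost without replicate 1 of wild-type (0.70, 0.114) or of mtr10 (0.78, 0.0800) and in MAS5 signals (0.64, 0.0831). In msn5 DDR2 differed from wild-type by 0.28 to 0.68 over the 6 settings without a call, and MAS5 signals gave one in starved non-polysome RNA (1.00, 0.0192). CTT1, HSP12 and HSP26 were called in 0 of the 12 mutant comparisons with wild-type, where 39.7% of all genes were called in fed polysome RNA of mtr10 and no member was, with differences of -0.43 to 0.31 for CTT1, -0.79 to 0.09 for HSP12 and -0.31 to 0.70 for HSP26. The compared groups alone called HSP26 higher in fed total RNA of mtr10 (0.60, adjusted p 0.00175). In fed non-polysome RNA of mtr10 HSP26 was called higher in the compared groups alone (0.70, 0.0439), in MAS5 signals (0.87, 0.0380) and without replicate 2 of mtr10 (1.03, 0.0400), against 0.0799 in the fit of all groups. HSP12 was called lower in starved polysome RNA of mtr10 in the compared groups alone (-0.56, 0.0335). In starved non-polysome RNA of mtr10 it was called lower in the compared groups alone (-0.79, 0.0137) and with the replicate number as a block (0.0339), against 0.0892.

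**Figure D3:**
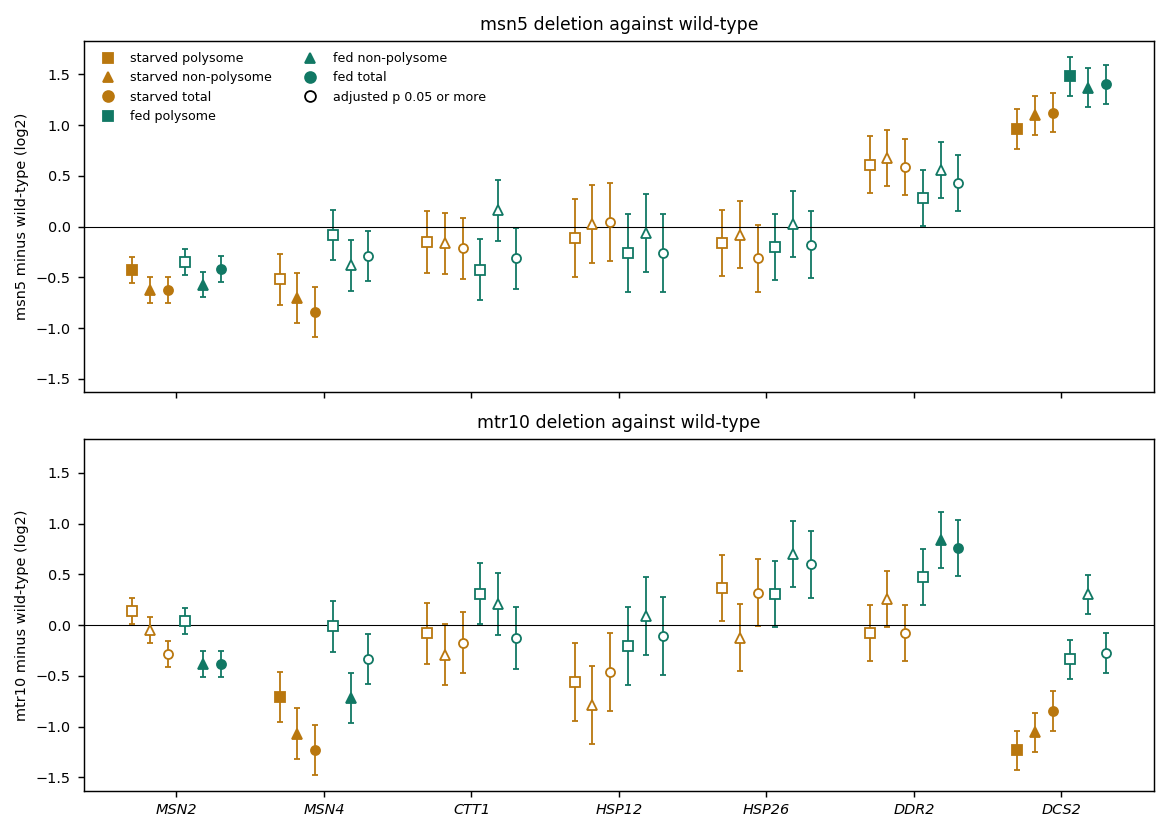
Difference of each deletion from wild-type (log2, with standard error) for the 7 genes in starved and fed cells and the 3 pools of RNA; open points have an adjusted p of 0.05 or more. DCS2 lies above 0 in all 6 settings of msn5 and below 0 in the 3 starved settings of mtr10.

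In 9 of the 18 groups the replicate arrays differed in the same direction in all 5 target genes. On the 2 msn5 fed total arrays the second was above the first in all 5 target genes, by 0.27 to 0.94, and on the starved total arrays by 0.19 to 0.80. The second was also above the first in all 5 on the msn5 starved polysome arrays, by 0.20 to 1.08, and the first above the second on the msn5 fed polysome arrays, by 0.37 to 0.88. In mtr10 the second was above the first in all 5 on the fed total arrays, by 0.04 to 0.90, and on the fed polysome arrays, by 0.16 to 1.04. In wild-type the first was above the second in all 5 on the starved total arrays, by 0.25 to 0.63, the starved polysome arrays, by 0.13 to 0.58, and the starved non-polysome arrays, by 0.27 to 0.49. These spreads enter the standard errors above, which are 0.28 for DDR2, 0.30 for CTT1, 0.33 for HSP26 and 0.38 for HSP12.

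Polysome RNA was set against non-polysome RNA to ask how far each message sat on ribosomes relative to other messages. Over all genes 28.3%, 31.3% and 26.5% were called higher in polysome RNA of fed msn5, mtr10 and wild-type cells. In starved cells 36%, 35.5% and 34.1% were, in the same order. HSP26 lay towards polysomes in fed cells. Its fed polysome arrays had 11.46 and 10.58 in msn5, 11.45 and 11.61 in mtr10 and 11.30 and 11.14 in wild-type, against 9.10 and 9.49 on the fed non-polysome arrays of msn5, 10.30 and 9.64 of mtr10 and 9.33 and 9.20 of wild-type. No polysome array fell among the non-polysome ones. The ratio was 1.72 ± 0.33 in msn5 (adjusted p 0.000131), 1.56 ± 0.33 in mtr10 (0.000329) and 1.95 ± 0.33 in wild-type (3.78e-05). In starved cells it was 0.54 (0.149), 1.11 (0.00498) and 0.62 (0.103) in the same order of strains, the msn5 value passing without starved polysome replicate 1 (1.08, 0.0114).

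The change of the HSP26 ratio on starvation was -1.18 ± 0.46 in msn5 (adjusted p 0.0436), -0.45 ± 0.46 in mtr10 (0.476) and -1.33 ± 0.46 in wild-type (0.0274), where 43.8%, 32.4% and 39.7% of all genes changed. In wild-type it was lost without fed polysome replicate 1 (-1.25, 0.0760), fed non-polysome replicate 1 (-1.39, 0.0506) or 2 (-1.26, 0.0715), starved polysome replicate 2 (-1.04, 0.115) or starved non-polysome replicate 1 (-1.08, 0.114). In msn5 it was lost without fed polysome replicate 1 (-0.74, 0.235), fed non-polysome replicate 1 (-0.99, 0.130), starved polysome replicate 1 (-0.64, 0.269) or starved non-polysome replicate 1 (-1.33, 0.0548) or 2 (-1.03, 0.112), in the fit of the compared groups (0.172) and in uncentred MAS5 signals (-0.89, 0.117).

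MSN2 and MSN4 messages lay towards polysomes when starved. MSN4 had 10.45 and 10.95 in polysome against 8.75 and 9.68 in non-polysome RNA of starved msn5 cells, 10.57 and 10.45 against 8.87 and 8.84 in mtr10, and 11.27 and 11.18 against 9.91 and 9.93 in wild-type. All polysome arrays were above the non-polysome ones. The starved ratio was 1.49 ± 0.25 in msn5, 1.66 ± 0.25 in mtr10 and 1.30 ± 0.25 in wild-type (adjusted p 1.91e-05, 4.43e-06 and 0.000104), where 36%, 35.5% and 34.1% of all genes were called higher. In fed cells it was 0.97, 1.38 and 0.67 (0.00216, 6.14e-05 and 0.0270), where 28.3%, 31.3% and 26.5% were. The fed msn5 call was lost without non-polysome replicate 1 (0.535, 0.10), and the fed wild-type call without polysome replicate 1 (0.655, 0.101) or 2 (0.695, 0.0771), without non-polysome replicate 2 (0.56, 0.158) and in MAS5 signals (0.61, 0.0606). The change of the ratio on starvation, 0.51 in msn5, 0.28 in mtr10 and 0.63 in wild-type, was not called. It was in wild-type in the compared groups alone (0.0131), and in msn5 without fed non-polysome replicate 1 (0.95, 0.0283) or starved non-polysome replicate 2 (0.98, 0.0193).

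MSN2 had a starved ratio of 0.85 ± 0.13 in msn5, 0.84 ± 0.13 in mtr10 and 0.65 ± 0.13 in wild-type (adjusted p 5.44e-06, 5.55e-06 and 0.000151), and a fed ratio of 0.36 (0.0212), 0.55 (0.000795) and 0.14 (0.396). The fed msn5 call was lost without polysome replicate 1 (0.34, 0.0934) or 2 (0.38, 0.0581), without non-polysome replicate 1 (0.15, 0.399) and in the fit of the compared groups (0.109), and the ratio was 0.57 without non-polysome replicate 2. MAS5 signals called the fed wild-type ratio (0.33, 0.0163). The ratio rose on starvation by 0.49 ± 0.18 in msn5 (0.0338) and 0.51 ± 0.18 in wild-type (0.0284), with 0.29 ± 0.18 in mtr10 (0.226). The wild-type rise was lost without fed polysome replicate 2 (0.48, 0.0798), fed non-polysome replicate 1 (0.38, 0.146), starved polysome replicate 1 (0.42, 0.120) or starved non-polysome replicate 1 (0.49, 0.0731). The msn5 rise was lost without fed polysome replicate 1 (0.51, 0.0564) or 2 (0.46, 0.0884), fed non-polysome replicate 2 (0.28, 0.246), starved polysome replicate 2 (0.39, 0.122) or starved non-polysome replicate 1 (0.33, 0.185). In MAS5 signals it was 0.36 (0.0703) in msn5 and 0.15 (0.458) in wild-type.

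DCS2 lay towards polysomes in starved cells of all strains, by 0.83 in msn5, 0.78 in mtr10 and 0.96 in wild-type (adjusted p 0.000756, 0.00122 and 0.000200). In fed cells the ratio was 1.05 in msn5 (0.000104), 0.30 in mtr10 (0.199) and 0.94 in wild-type (0.000372), and the mtr10 value was called without non-polysome replicate 2 (0.55, 0.0417). CTT1 lay towards the non-polysome pool in fed msn5 cells (-0.88 ± 0.30, 0.0169), where 26.2% of all genes did, a call lost without polysome replicate 2 (-0.585, 0.200) or non-polysome replicate 2 (-0.70, 0.130), and -1.35 in uncentred MAS5 signals. HSP12 in fed and DDR2 in starved wild-type cells were called in the compared groups alone (0.0425 and 0.0295). HSP12 and DDR2 were called in 0 of the 6 ratios, in either direction, in the fit of all groups. Of all genes 26.5% to 36% were called higher in these ratios. A further 26.2% were called lower in fed msn5, and the shares called lower in the other ratios are not given here. No ratio of a member differed between a mutant and wild-type past the threshold in the fit of all groups, which 0.0562% of all genes passed for fed and 0.0749% for starved msn5, and 8.30% for fed and 1.82% for starved mtr10. The compared groups alone called the MSN4 ratio higher in fed mtr10 (0.70, adjusted p 0.0334, against 0.221). Intervals stayed wide, from -1.19 to 0.73 for HSP26 in fed msn5.

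**Figure D4:**
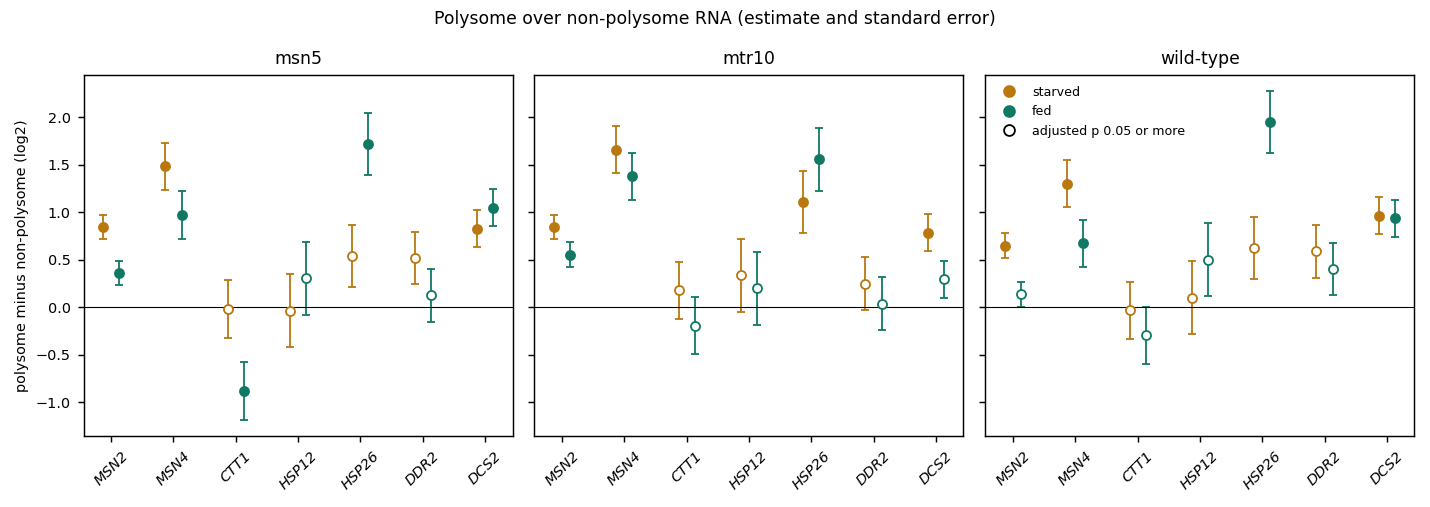
Polysome over non-polysome RNA (difference of log2 signals, with standard error) for the 7 genes in starved and fed cells of each strain; open points have an adjusted p of 0.05 or more. HSP26 is high in fed cells and lower when starved in msn5 and wild-type. The estimates of MSN2 and MSN4 lie higher when starved in each strain, a change called only for MSN2 in msn5 and wild-type.

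Other genes of the pathway were described as lists. Of 49 measured further target genes of Msn2 and Msn4, 26 rose and 1 fell on starvation in msn5 total RNA, 27 rose and 0 fell in mtr10, and 34 rose and 3 fell in wild-type. The shares that rose were 53.1%, 55.1% and 69.4%, against 28.8%, 24.8% and 31.4% of all genes in the same strains, and 32.2%, 23.9% and 32.8% of all genes fell. The median changes of the 49 were 0.50, 0.59 and 0.67. TMA10, a ribosome-associated stress protein, rose by 2.14 ± 0.26 in msn5, 1.82 ± 0.26 in mtr10 and 2.43 ± 0.26 in wild-type. FMP16 rose by 2.47 in msn5 and 1.96 in wild-type, and IGD1, an inhibitor of glycogen debranching, by 1.44 in mtr10 and 2.20 in wild-type. Of 17 glycogen and trehalose genes, which hold several known Msn2 and Msn4 targets, 17, 15 and 17 rose in the 3 strains (100%, 88.2% and 100%). GSY1, a glycogen synthase, rose by 2.16 in msn5 and 2.96 in wild-type, and GLG1, which primes glycogen chains, by 1.99, 1.18 and 2.05. Chaperone genes of the heat shock factor Hsf1 moved the other way, with 15, 9 and 16 of 17 called lower (88.2%, 52.9% and 94.1%, against the 32.2%, 23.9% and 32.8% of all genes that fell), and STI1, an Hsp90 cochaperone, fell by 1.30, 0.76 and 2.23.

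In fed total RNA 21 of the 49 further target genes were higher in msn5 than in wild-type and 2 lower (42.9% and 4.08%, against 6.58% and 5.36% of all genes, with a median of 0.52 beside -0.02). CYC7, an isoform of cytochrome c, was higher by 1.80 ± 0.24 (adjusted p 2.36e-05), IGD1 by 1.55, SOL4, a pentose phosphate enzyme, by 1.53 and STF2 by 1.32. When starved 22 were higher and 3 lower (44.9% and 6.12%, against 9.25% and 10.9% of all genes), with MOH1 higher by 1.36 and PHM7 lower by 1.63. The glycogen and trehalose list had 4 of 17 higher and 1 lower when starved (23.5% and 5.88%) and 10 higher and 0 lower when fed (58.8%). In mtr10 the further target genes had 7 higher and 11 lower when starved (14.3% and 22.4%, against 25.7% and 28.5% of all genes) and 15 higher and 9 lower when fed (30.6% and 18.4%, against 18.8% and 20.7%). The shares called lower were thus no larger than over all genes. In starved mtr10 cells 12 of 17 glycogen and trehalose genes were lower than in wild-type (70.6%, against 28.5% of all genes, with a median of -0.74 beside -0.03), with PGM2, a phosphoglucomutase, lower by 1.90 ± 0.23. In the same comparison 14 of 17 Hsf1 chaperone genes were higher (82.4%, against 25.7% of all genes, with a median of 0.92). Between the starved mutants, msn5 was higher than mtr10 in 23 of 49 further target genes and lower in 2 (46.9% and 4.08%, against 24.6% and 23.2% of all genes).

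Of 31 regulators of Msn2 and Msn4, such as subunits and controls of protein kinase A and TOR, 14 rose and 7 fell on starvation in msn5 total RNA, 12 rose and 5 fell in mtr10, and 12 rose and 8 fell in wild-type. The shares that rose, 45.2%, 38.7% and 38.7%, stood against 28.8%, 24.8% and 31.4% of all genes, and the shares that fell, 22.6%, 16.1% and 25.8%, against 32.2%, 23.9% and 32.8%. YAK1, a kinase that acts against protein kinase A signalling, rose by 0.87 ± 0.09 in msn5, 1.23 ± 0.09 in mtr10 and 1.10 ± 0.09 in wild-type. It was also higher in msn5 than in wild-type, by 0.56 starved (adjusted p 7.58e-05) and 0.79 fed (1.30e-06). PDE1, a cyclic AMP phosphodiesterase, was higher in msn5 by 0.29 starved (0.0411) and 0.55 fed (0.000699), and these 2 genes were the regulators called higher in msn5 in both conditions. In mtr10 16 of 31 were lower than in wild-type when starved and 14 when fed (51.6% and 45.2%, against 28.5% and 20.7% of all genes), RIM15, a kinase that promotes the starvation programme, by 0.81 in both. Of 15 other stress activators and STRE-binding factors, 5, 6 and 5 rose on starvation in msn5, mtr10 and wild-type (33.3%, 40% and 33.3%), against 28.8%, 24.8% and 31.4% of all genes. NRG1, a glucose repressor, rose by 1.38, 1.54 and 1.72.

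**Figure D5:**
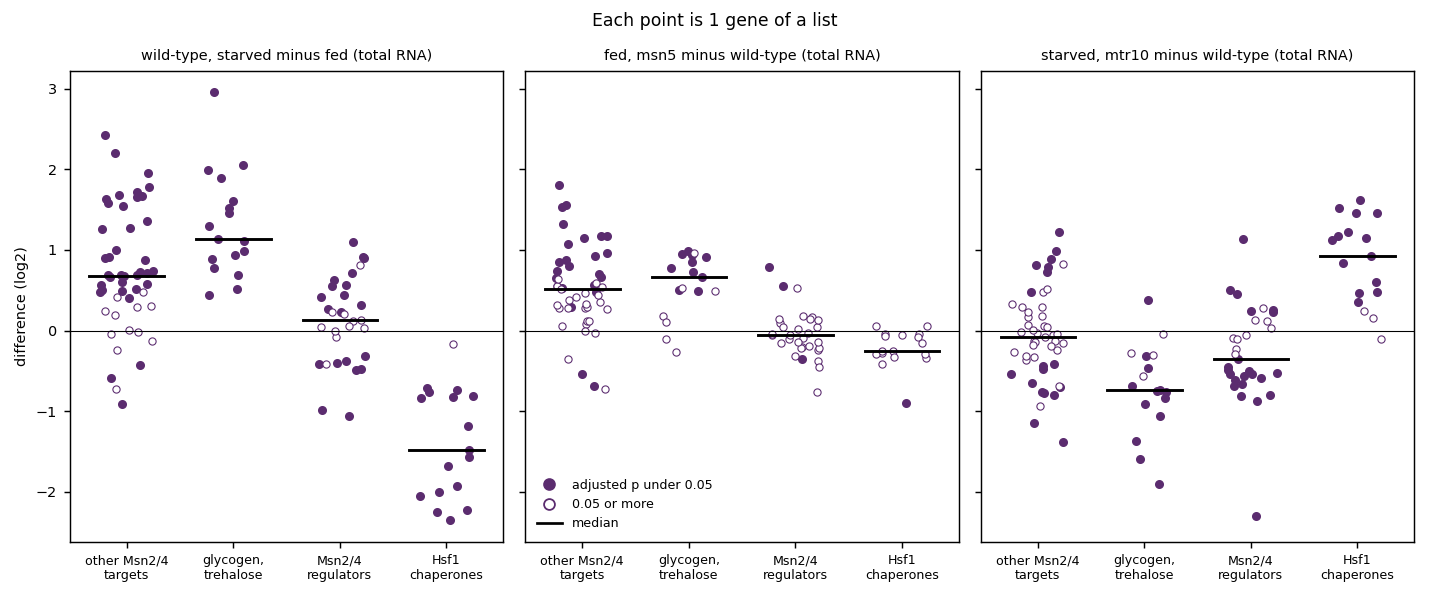
Differences in total RNA (log2) of every gene in 4 lists: starved minus fed wild-type cells, msn5 minus wild-type when fed, and mtr10 minus wild-type when starved; each point is a gene, filled where called, and bars are medians. Further Msn2/Msn4 targets have a median of 0.67 on starvation, 0.52 in fed msn5 and -0.07 in starved mtr10.

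Likeness between patterns was described by Pearson's r over the 18 group means, which share strains, pools and conditions. HSP12 (0.910) and DDR2 (0.902) followed the mean of the other 4 targets most closely, CTT1 (0.683) and DCS2 (0.608) less, and HSP26 least (0.303). Over all genes, SNZ1 and NDE2 (0.969 each), LAG2 (0.967), SER1 (0.964) and MAL33 (0.963) were most like the mean of the 5 targets. MSN2 and MSN4 had an r of 0.785 with each other. The genes most like MSN2 were CIK1 (0.906), PRK1 (0.890) and CHS1 (0.878), and those most like MSN4 were NUP188 (0.945), BEM1 (0.936) and TTI1 (0.932).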

How the data were processed

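RNA of yeast cultures was hybridised to 36 1-colour Affymetrix arrays. The labels do not give the number of separate cultures. The log2 values were made by the authors with RMA in affy, per the submitters' processing notes, and the sources used here do not give their versions. A second deposited table gives MAS5 intensity values on a linear scale, with a detection p-value per probe set, made before the files were deposited. There, 1 wild-type fed total and 1 wild-type starved total column each match the other condition in the RMA values.

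Of 5684 probe sets with RMA values, 5379 have 1 gene, which gave 5338 genes after 1 probe set was kept per gene, and 5276 were Present on all arrays at a detection p under 0.05. RMA gives arrays the same distribution, so pools are compared relative to other messages. Group means were fitted with limma 3.58.1 in R 4.3.3 (18 residual degrees of freedom, 3.92 prior), with 40 comparisons, each adjusted by Benjamini-Hochberg over all genes, at 0.05. The number of arrays limits the precision. Tested on simulated data of 5338 genes with 200 changed, the fit called 100% of changes of 2 and 98% of changes of 1, and 15 unchanged genes. The changes were put in 1 group, with noise drawn independently for each gene and array. In the data replicate arrays often differed together and many changes were below 1, so these shares do not give the power there. Tables and figures used python 3.11.15, pandas 2.3.3 and matplotlib 3.10.9.

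Alternatives were MAS5 signals (all columns, without the 2 columns, and without centring), only the groups compared, a trend and robust prior, genes Present on all arrays, the lowest probe set of a gene, each array left out and the replicate number as a block. Added after seeing the data were a fit without the mutants' fed non-polysome arrays and crossed replicate numbers. Same-numbered arrays deviated together with r of -0.584 to 0.631 over the comparisons within and between strains. Within a strain r ran from -0.499 to 0.631, the lowest with the msn5 fed polysome arrays. No pairing was used in the main fit, and whether equal numbers share a culture was not tested. The members and gene lists were chosen with earlier results of these data known. Named were the members, the 2 deleted genes, the genes with the highest r to the targets' mean (5), MSN2 and MSN4 (3 each), and up to 4 called genes of each list by size of change. Sequences were not used here.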

Additional observations from a re-analysis of the deposited data

Results flagged for a closer look

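A difference between strains or conditions that passed its own test drew attention in 5 results. The starvation response of DCS2 in polysome RNA differed between mtr10 and wild-type by -0.8965 on the log2 scale. The ratio of polysome to non-polysome RNA changed on starvation by 0.4871 for MSN2 and by -1.182 for HSP26 in msn5, and by 0.5135 for MSN2 and -1.328 for HSP26 in wild-type. Each of these calls was lost on leaving out any of several single arrays, as given beside it in the report. Groups of 2 arrays were not tested for a sample that stands apart.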

How the results depend on the processing

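Over the 40 comparisons of the 7 genes, 94 changes were called and 186 were not. All 94 kept their call and direction with a trend and robust prior and with the replicate number as a block. That block was a term common to all strains, and replicate differences within each strain were not fitted. All 94 also did so with the lowest probe set of each gene and among genes Present on all arrays. Those 2 settings could change little, since each member has 1 probe set and was Present on all 36 arrays, so its own values stayed the same. Fitting only the groups compared lost 13 calls. MAS5 signals without the mismatched columns, which have 1 array in each wild-type total group, lost 18. Of 396 fits of called changes with 1 array left out, 90 lost the call. A reversal is given only where a called value changed sign. MAS5 signals with all columns reversed the starvation change in wild-type total RNA of MSN4 (-0.132) and CTT1 (-0.0448), since 2 of those columns hold the other condition, and called 0 targets there, against 3. The cause of the other changes was not tested.

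The following are counts of the 5 target genes called. MAS5 signals with all columns gave 1 higher on starvation in mtr10 total RNA against 3, 2 in msn5 polysome RNA against 4, 1 in mtr10 polysome RNA against 3 and 0 in mtr10 non-polysome RNA against 2. They gave 0 higher against 1 for msn5 over wild-type in fed total, fed and starved polysome, and fed and starved non-polysome RNA, and 2 against 1 in starved total RNA. For mtr10 over wild-type they gave 0 higher against 1 in fed total and fed non-polysome RNA, 1 lower against 0 in fed total and 0 lower against 1 in starved total RNA. For polysome over non-polysome RNA they gave 0 higher against 1 in starved msn5 and wild-type, 1 against 2 in starved mtr10 and 0 lower against 1 in fed msn5. The lower call in the mtr10 polysome response and in the msn5 ratio change on starvation became 0. MAS5 signals without the mismatched columns, centred or not, gave 2 higher against 1 for msn5 over wild-type in starved non-polysome RNA, 0 higher against 1 for mtr10 in fed total RNA, 1 lower against 0 for msn5 over mtr10 when fed, 0 lower against 1 for the mtr10 polysome response and 1 higher against 0 for the msn5 ratio change. Without centring they also gave 0 higher against 1 for msn5 in starved total and polysome RNA, 1 against 2 on starvation in mtr10 non-polysome RNA and 0 lower against 1 for the msn5 ratio change.

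Only the groups compared gave 0 higher against 1 for msn5 over wild-type in starved polysome and non-polysome RNA, 2 higher against 1 for mtr10 in fed total and non-polysome RNA, 1 lower against 0 for mtr10 in fed polysome RNA and 2 lower against 1 in its starved polysome and non-polysome RNA. They gave 1 lower against 0 for msn5 over mtr10 in fed and starved total RNA, 2 higher against 1 when starved, 2 higher against 1 for polysome over non-polysome RNA of starved wild-type, and 0 lower against 1 for the msn5 ratio change. The replicate block gave 2 lower against 1 for mtr10 in starved non-polysome RNA and 2 higher against 1 for msn5 over mtr10 when starved, where the trend and robust prior also gave 2. The block called HSP12 on starvation in wild-type total RNA (0.872, adjusted p 0.0162), and changed 4 uncalled values in all. Crossed numbers in a block were fitted to the compared groups alone, and only where same-numbered arrays deviated in opposite directions. For msn5 over wild-type in starved total RNA (r of -0.393) they gave 960 genes called, against 30 as numbered. The larger number was largely fixed by that choice of comparison.

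With 1 array left out, counts ran from 3 to 5 higher on starvation in msn5 non-polysome RNA and were 1 in mtr10 non-polysome RNA. For mtr10 over wild-type they ran from 0 to 1 higher in fed total and 0 to 2 in fed non-polysome RNA. For msn5 over mtr10 they ran from 0 to 1 lower when fed and 1 to 2 higher when starved. The mtr10 polysome response ran from 0 to 1 lower. Polysome over non-polysome counts ran from 0 to 1 lower in fed msn5, and 1 to 2 higher in fed mtr10 and starved msn5. The ratio change on starvation ran from 0 to 1 lower in wild-type and msn5, and 0 to 1 higher in msn5. Groups of 2 arrays limit all of these.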
